A study of Mus musculus with 27 samples.

Results

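Transcripts of the fatty acid binding proteins of the brain, fabp3, fabp5 and fabp7, were examined in the cortex of 5xFAD mice injected with a retromer stabilizer. These 3 genes of the 26264 gene symbols in the deposited table were found by their symbols. They had been chosen from the levels and treatment differences in these same libraries, so their levels and treatment differences are given as a description, and nothing is read from whether they pass a threshold. All animals were female 5xFAD mice on a C57BL/6J cross, aged 16 weeks, which carry 2 human transgenes with 5 familial Alzheimer's disease mutations in all, driven by the neuronal Thy1 promoter. Each mouse received 500 nL in the lateral parietal association cortex of a single hemisphere, either the vehicle (3% DMSO in saline with 20% sulfobutylether beta-cyclodextrin) or R33 or R55 at 10 mM in the same solution. R33 and R55 are small molecules described as pharmacological chaperones that stabilize the retromer, the complex that sorts cargo out of endosomes. After 24 h a block of about 1 mm3 was cut around the injection site and from the contralateral hemisphere, and each block became a library. The 27 libraries used came from 14 mice. They comprised 4 contralateral and 4 injected libraries of vehicle-treated mice, 4 and 5 of R33-treated mice, and 5 and 5 of R55-treated mice. The R33-treated mouse AE has its injected library only, and libraries of mice without the transgenes were not used here. Mice carry labels of 1 letter (9 mice) or 2 letters (5 mice), and values within the 1-letter labels are given beside the pooled differences of the 3 genes and the relations described.

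Fatty acid binding proteins are small cytosolic proteins that hold a long-chain fatty acid or a related lipid inside a barrel of beta strands and carry it between membranes, metabolic enzymes and nuclear receptors such as the PPARs. In the brain, Fabp3, the heart type, is found mainly in neurons. Fabp5, the epidermal type, is found in neurons and glia. Fabp7, also called brain lipid-binding protein, marks radial glia during development and astrocytes and oligodendrocyte precursors in the adult, and its mRNA is known to vary over the day in mouse brain. Fabp5 and Fabp7 also carry endocannabinoids such as anandamide to the enzymes that hydrolyse them. In bulk tissue, fewer cells of a type and less RNA per cell cannot be told apart.

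On GRCm39, the build used by the authors, GENCODE release M39 places Fabp3 on chr4:130202388-130209259 with 4 exons in its canonical transcript, Fabp5 on chr3:10077602-10081674 with 4 exons, and Fabp7 on chr10:57660956-57664554 with 3 exons, all on the plus strand. The gene lengths recovered from the deposited values were 680 bp for fabp3, 953 bp for fabp5 and 762 bp for fabp7, short beside a median of 3149 bp over the tested genes. Near-identical copies were searched among annotated transcripts, at 95% identity or more over at least 100 bp. Fabp7 had 0 such copies. Fabp5 matched the processed pseudogenes Gm14328 and Gm6166, and Fabp3 matched the pseudogene Fabp3-ps1, at 97.3 to 99.3% identity over 402 to 409 bp, so reads of Fabp3 and Fabp5 could have been split with these copies. In addition, 293 bp of Fabp3 overlap a transcript of Zcchc17 on the opposite strand. The libraries were stranded, but whether fragments were counted by strand is not given in the sources used here.

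The promoters of Fabp3 and Fabp7 are shown because both genes were set beside clock genes, and RefSeq sequences on GRCm38.p6 were found for 2 of the 3 genes; Fabp5 has no entry. Each runs from 250 bases before to 50 bases after the start of the gene, Fabp7 on chr10:57784673-57784972 and Fabp3 on chr4:130308488-130308787, both on the plus strand.
Fabp7: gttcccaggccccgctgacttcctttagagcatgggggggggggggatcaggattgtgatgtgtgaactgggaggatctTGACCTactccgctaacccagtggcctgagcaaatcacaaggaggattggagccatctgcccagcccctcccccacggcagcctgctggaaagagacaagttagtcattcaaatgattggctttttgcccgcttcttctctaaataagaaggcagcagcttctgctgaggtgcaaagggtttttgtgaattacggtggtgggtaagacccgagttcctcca
Fabp3: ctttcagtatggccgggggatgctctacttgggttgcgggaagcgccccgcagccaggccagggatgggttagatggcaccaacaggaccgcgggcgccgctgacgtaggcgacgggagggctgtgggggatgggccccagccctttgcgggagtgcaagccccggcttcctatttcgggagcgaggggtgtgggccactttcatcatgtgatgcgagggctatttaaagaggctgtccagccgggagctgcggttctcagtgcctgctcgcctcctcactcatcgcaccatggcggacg
Capitals mark matches on either strand to AGGTCA, the core bound by many nuclear receptors including the PPARs and the clock repressor Nr1d1, to CACGTG, the E-box bound by the clock activators, or to TTATGTAA, a core of the D-box bound by Dbp. None of these motifs contains another. Fabp7 held a single match, to AGGTCA on the minus strand, from base -171 to base -166 before the start of the gene. AGGTCA is found in 16.2% of 32544 RefSeq promoters of this length, CACGTG in 7.17% and TTATGTAA in 0.931%. Fabp3 held 0 matches in this window. GC content was 54.0% for Fabp7 and 65.0% for Fabp3.

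Expression is given as FPKM, the fragments counted on a gene scaled by its length in kilobases and by the total of fragments that the library has on genes. All 3 genes were above the filter of a mean of 1 FPKM in use below. Of the 3, fabp5 was the most abundant at a mean of 64.7 FPKM over the 27 libraries, followed by fabp3 at 47.2 FPKM and fabp7 at 32.1 FPKM. This order held in 23 libraries. Fabp7 was above fabp3 in the other 4, and in 2 of those it was also above fabp5. The libraries held 15932197 to 38077027 fragments on genes, and each value rested on at least 427 fragments for fabp3, 840 for fabp5 and 308 for fabp7.

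The blocks carried markers of neurons, astrocytes and oligodendrocytes. Oligodendrocyte markers, led by Mbp, ran from 589 to 2842 FPKM per library with a median of 1539 FPKM. Neuron markers summed to 3189 to 4785 FPKM per library, led by Snap25, a protein of synaptic vesicle fusion, and astrocyte markers to 844 to 2080 FPKM, led by Aldoc, a glycolytic enzyme. Of the 5 red blood cell markers, the 4 haemoglobin genes are listed at 0 in every library, and Alas2, the haem synthesis enzyme of red cell precursors, averaged 2.56 FPKM. Choroid plexus and ependymal markers, led by the thyroxine carrier Ttr, ran from 6.80 to 1663 FPKM with a median of 20.3 FPKM, so single blocks held far more of these transcripts than others. Striatal neuron markers, led by Ppp1r1b, ran from 35.7 to 281 FPKM around a median of 58.6 FPKM.

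Fabp7, the astrocyte and progenitor member, varied most among mice, with mouse means from 19.2 to 85.7 FPKM. In the contralateral hemisphere of vehicle-treated mice it measured 25.9 FPKM in mouse L, 26.8 in AH, 29.5 in M and 109 in J. In their injected hemisphere it measured 20.9 FPKM in L, 34.0 in AH, 50.7 in M and 62.2 in J. Mouse J was the highest vehicle control in both hemispheres, and the contralateral libraries of the other 3 lay within 4 FPKM of each other. After R33, the contralateral values were 20.3 FPKM in AD, 24.3 in O, 25.6 in N and 26.0 in K, and the injected values were 21.5 in N, 29.3 in AE, 34.3 in K, 45.8 in O and 54.3 in AD. After R55, the contralateral values were 15.7 FPKM in P, 18.8 in AB, 19.6 in R, 25.8 in AA and 25.9 in Q, and the injected values were 19.3 in R, 19.6 in Q, 19.7 in AB, 23.6 in P and 37.2 in AA. The injected block of AA lay above the other R55 values, and the contralateral blocks of AA and Q lay next to that of vehicle-treated mouse L. Of the 5 R55-treated mice, 4 had a mouse mean below the lowest vehicle control and below the lowest R33-treated mouse. The same count was not made over all genes, and nothing is read from it.

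Fabp5, which is found in neurons and glia, was even among vehicle controls and reached its highest value after R33. In vehicle controls it measured 49.7 FPKM in L, 53.1 in AH, 55.3 in M and 69.3 in J in the contralateral hemisphere, and 55.8 in J, 57.1 in L, 58.9 in M and 60.002 in AH in the injected one. After R33 it measured 53.0 FPKM in N, 56.5 in K, 63.4 in O and 70.0 in AD in the contralateral hemisphere, and 53.1 in K, 58.3 in N, 66.4 in O, 71.5 in AE and 130.3 in AD in the injected one. The injected block of AD lay far above every other library, and the others overlapped the vehicle controls. After R55 it measured 55.6 FPKM in P, 57.5 in R, 69.0 in AA, 71.8 in AB and 80.7 in Q in the contralateral hemisphere, and 49.9 in Q, 60.02 in P, 62.9 in AB, 71.0 in R and 86.4 in AA in the injected one. Mouse means of 4 of the 5 R55-treated mice were above the highest vehicle control, with overlap through the remaining mouse. Nothing is read from this count either, since it was not made over all genes.

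Fabp3, the neuronal member, had the narrowest range of the 3, from 33.7 to 68.9 FPKM. In vehicle controls it measured 38.8 FPKM in J, 39.4 in M, 44.6 in AH and 48.0 in L in the contralateral hemisphere, and 38.9 in J, 41.4 in M, 47.3 in L and 48.4 in AH in the injected one. After R33 it measured 42.0 FPKM in N, 45.4 in K, 49.5 in O and 60.7 in AD in the contralateral hemisphere, and 33.7 in O, 39.97 in AE, 40.9 in N, 47.5 in K and 68.9 in AD in the injected one. Mouse AD was the highest of the R33-treated mice in both hemispheres. After R55 it measured 37.4 FPKM in R, 44.6 in P, 53.5 in AA, 55.3 in AB and 63.8 in Q in the contralateral hemisphere, and 47.1 in Q, 48.0 in AB, 48.7 in P, 50.2 in R and 51.0 in AA in the injected one. The injected libraries of R55-treated mice lay close together, and their contralateral libraries spanned most of the range.

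**Figure D1:**
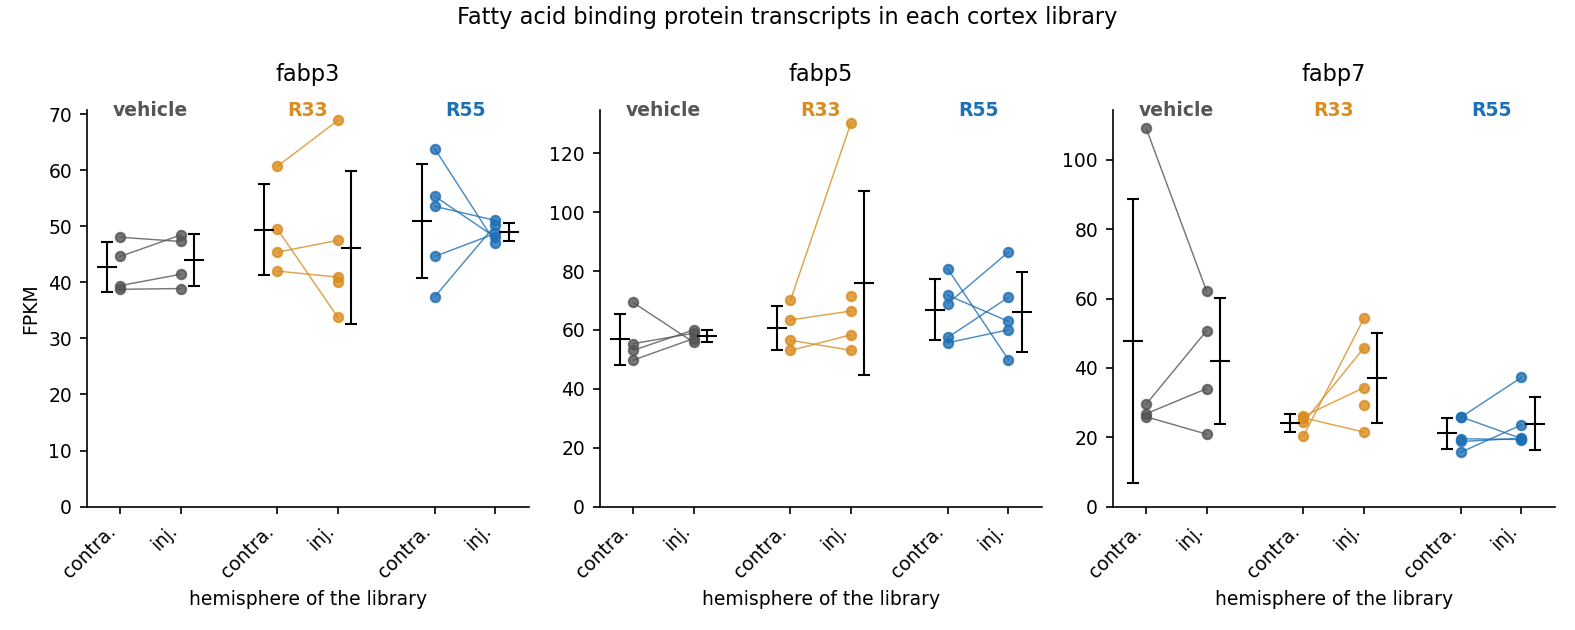
FPKM of fabp3, fabp5 and fabp7 (vertical axes, from 0) in each of the 27 libraries, by treatment and hemisphere; points joined by a line are the hemispheres of a mouse, and bars are the mean and SD of a group. The contralateral library of vehicle-treated mouse J stands at 109 FPKM for fabp7, and the injected library of R33-treated mouse AD at 130.3 FPKM for fabp5.

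R55 was compared with vehicle to ask what retromer stabilization does to the transcriptome a day after injection. Fabp7 was lower after R55, at 22.5 ± 5.22 FPKM (SD, n = 5 mice) against 44.9 ± 28.1 FPKM in vehicle controls (SD, n = 4), a log2 difference of -0.80 (SE 0.24). Fabp5 measured 66.5 ± 7.20 FPKM after R55 against 57.4 ± 3.803 FPKM, a log2 difference of 0.20 (SE 0.13). Fabp3 measured 49.985 ± 4.65 FPKM against 43.4 ± 4.39 FPKM, a log2 difference of 0.19 (SE 0.11). The ranges of mouse means overlapped for all 3 genes. Differences are on the scale of log2(FPKM + 1) and come from a limma fit of 12976 genes with treatment and hemisphere as factors. That fit took every library as independent, so its SEs, here and below, do not allow for the likeness of blocks from the same mouse. A fit with a value per mouse gave SEs of 0.27 for fabp7, 0.14 for fabp5 and 0.13 for fabp3 after R55. A fit with a correlation within mice gave 0.28, 0.15 and 0.12, and neither fit changed the 3 differences. At a Benjamini-Hochberg adjusted p under 0.05, 0 of the 3 genes were called, against 1 gene or 0.00771% of all tested genes (Ryr2, the calcium release channel, at a log2 difference of -0.50 with an SE of 0.083, named after its values were seen; the count was 0 with a correlation within mice). At an unadjusted p under 0.05 it was 1 of the 3, fabp7, against 1096 genes or 8.45%. The 3 genes were chosen with this comparison known, so nothing is read from these counts.

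The size of the fabp7 difference depended on vehicle-treated mouse J. Without J the log2 difference was -0.44, and the vehicle controls averaged 31.3 ± 8.37 FPKM (SD, n = 3). Without any other single mouse it ran from -1.03 to -0.75. Among mice with 1-letter labels, the log2 difference was -1.01 for fabp7, 0.10 for fabp5 and 0.19 for fabp3. Among mice with 2-letter labels, the single vehicle control had a mean of 30.4 FPKM for fabp7, and the 2 R55-treated mice averaged 25.4 FPKM. For fabp3 and fabp5, removal of each library's trend of expression on gene length left log2 differences of 0.09 and 0.10, and fabp7 was then at -0.90.

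R33 was compared with vehicle in the same way. Fabp7 measured 31.1 ± 5.36 FPKM after R33 (SD, n = 5 mice), a log2 difference of -0.39 (SE 0.25) from vehicle, and without mouse J the difference was -0.04. It was -0.63 without mouse L, -0.67 in the contralateral and -0.14 in the injected hemispheres, and -0.48 with the length trend removed (95% interval -0.91 to -0.06). Fabp5 measured 69.4 ± 18.5 FPKM, a log2 difference of 0.21 (SE 0.13), which fell to 0.07 without R33-treated mouse AD. Fabp3 measured 46.9 ± 10.3 FPKM, a log2 difference of 0.11 (SE 0.11), which was -0.02 without AD. With a value per mouse the SE of the R33 difference was 0.27 for fabp7, 0.14 for fabp5 and 0.13 for fabp3. Mice with 1-letter labels alone gave -0.54 for fabp7, 0.02 for fabp5 and 0.02 for fabp3. In the limma fit 0 of the 3 genes were called, and so were 0 or 0% of all tested genes, while 762 genes or 5.87% had an unadjusted p under 0.05, 0 of the 3 among them. The vehicle group of 4 mice is shared by this comparison and that of R55.

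The compounds were injected at matched concentration and time and can be compared directly. Fabp7 was lower after R55 than after R33 by a log2 difference of -0.41 (SE 0.23, 95% interval -0.88 to 0.07), with overlapping ranges of mouse means. Fabp5 differed by -0.02 (95% interval -0.27 to 0.24), and fabp3 by 0.08 (95% interval -0.13 to 0.30). All 3 intervals include 0, which does not show that the compounds act alike. The fabp7 interval lay below 0 without mouse J (-0.74 to -0.07), without AA (-1.03 to -0.03) and with the length trend removed (-0.82 to -0.02). It included 0 in the other alternatives, among them a correlation within mice (SE 0.27) and a value per mouse (SE 0.25). The intervals below 0 count the hemispheres of a mouse as separate. Fabp7 was chosen with these differences known, so nothing is read from where its intervals lie. The difference was -0.20 in the contralateral and -0.59 in the injected hemispheres. Leaving out mouse AD turned the fabp5 difference to 0.13 and moved that of fabp3 to 0.22, and without O that of fabp3 was 0.03. In the injected hemispheres fabp5 was at -0.14 and fabp3 at 0.13, and in the contralateral ones they were at 0.13 and 0.03. Within mice with 1-letter labels the differences were -0.47 for fabp7, 0.08 for fabp5 and 0.16 for fabp3. Of the 3 genes 0 were called, as were 0% of all tested genes, and 149 genes or 1.15% had an unadjusted p under 0.05, again with 0 of the 3.

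The injected hemisphere was compared with the contralateral one. Pooled over treatments, this contrast mixes the surgery with the injected compound, and only the vehicle-treated mice received no compound. Over all treatments fabp7 was 0.23 higher on the log2 scale in the injected hemisphere (SE 0.19), fabp5 was 0.08 higher (SE 0.10) and fabp3 differed by -0.04 (SE 0.09). Without mouse AD fabp7 was at 0.14 and fabp5 at 0.03, and without mouse Q fabp5 was at 0.14. Without mouse J fabp7 was at 0.32 (95% interval 0.02 to 0.61). That interval ignores the pairing of hemispheres, and J had the lowest fabp7 difference within a mouse, -0.80. Fabp7 was chosen with these values known, so nothing is read from where the interval lies. Fabp3 ran from -0.077 without R to -0.0045 without O. Of the 13 mice with both hemispheres, fabp7 was higher in the injected block of 8, fabp5 of 9 and fabp3 of 7. For fabp7 the difference within a mouse ran from -0.80 in the vehicle-treated group to 1.37 in the R33-treated group. Injected values of fabp7 were above contralateral ones in 2 of 4 vehicle-treated, 3 of 4 R33-treated and 3 of 5 R55-treated mice. The mean fabp7 difference within a mouse was -0.0009 in vehicle-treated, 0.60 in R33-treated and 0.15 in R55-treated mice. In vehicle-treated mice it was 0.04 for fabp5 and 0.04 for fabp3. Mice with 1-letter labels alone gave 0.095 for fabp7, -0.02 for fabp5 and -0.04 for fabp3. The limma fit called 0 of the 3 genes and 0% of all tested genes, and 450 genes or 3.47% had an unadjusted p under 0.05, with 0 of the 3 among them. With a correlation within mice it called 1 gene, not among the 3, and 896 genes or 6.91% had an unadjusted p under 0.05. With the mouse as a block these counts were 0 and 795. An interaction of treatment with hemisphere was called for 0 of the 3 genes, with 0 of 12976 genes called for either compound.

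**Figure D2:**
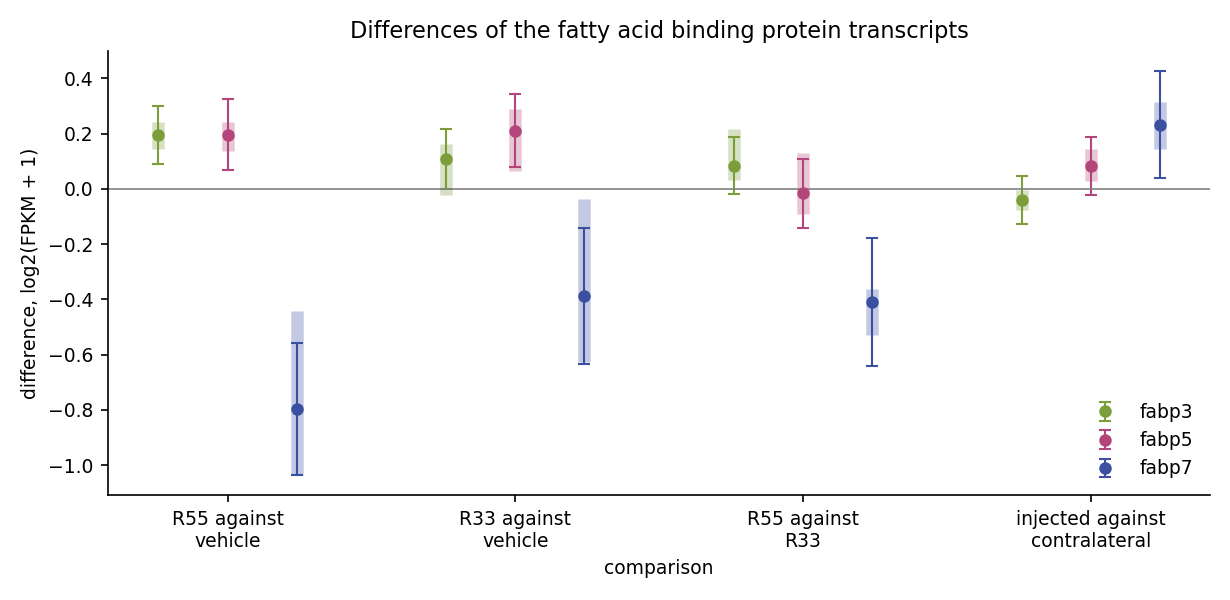
Differences of fabp3, fabp5 and fabp7 on the log2(FPKM + 1) scale (vertical axis) in each of the 4 comparisons; points and thin bars are the limma estimate and its SE, and pale bars span the estimates with each mouse left out in turn. Fabp7 lies at -0.80 for R55 against vehicle, and its pale bar reaches -0.44.

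High fabp7 came with high choroid plexus transcripts in a single block. The contralateral block of mouse J had both, with a sum of choroid plexus and ependymal markers of 1140.3 FPKM. Its injected block had 18.5 FPKM of these markers and 62.2 FPKM of fabp7, and the injected blocks of R33-treated mice K and N had 1080.3 and 1663 FPKM of them with 34.3 and 21.5 FPKM of fabp7. Astrocyte markers summed to 1421 ± 322 FPKM in vehicle controls (SD, n = 4 mice), 1652 ± 288 after R33 (SD, n = 5) and 1523 ± 241 after R55 (SD, n = 5), and their part in the fabp7 values was not tested. Of its 11 genes, 10 had a positive difference after R55, with a median of 0.13 against 0.026 over all tested genes, and 1 had an unadjusted p under 0.05, beside 8.45% of all tested genes. It was 1 with a correlation within mice (4% of all) and 0 with a value per mouse (3.39% of all). After R33, 3 of the 11 were higher at an unadjusted p under 0.05, beside 5.87%, and 2 and 1 were in these fits. The gene after R55 was Aldh1l1, a folate enzyme of astrocytes, at a log2 difference of 0.38 (SE 0.14, adjusted p = 0.552, limma). The other astrocyte markers named by the rule were Aldoc (0.25), S100b, a calcium-binding protein (0.24), and Gjb6, a connexin (0.22). The 5 oligodendrocyte precursor markers had a median of -0.056, with Cspg4, a proteoglycan of these cells, at -0.18, Gpr17 at -0.10, Pdgfra at -0.06 and Olig2 at 0.02.

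The other cell type lists had no gene past the adjusted threshold in limma. After R55 the median difference was 0.035 over 9 neuron markers, 0.15 over 7 oligodendrocyte markers, 0.043 over 7 microglia markers and -0.12 over 6 endothelial markers, each with 0 genes at an unadjusted p under 0.05. It was 0.38 over 7 mural and fibroblast markers, with 1 gene at an unadjusted p under 0.05, beside 8.45% of all tested genes, and 0 in both fits that account for the mouse (a correlation within mice, or a value per mouse). The 6 choroid plexus and ependymal markers had a median of -0.44, the 6 striatal neuron markers -0.23 and the 4 tested markers of progenitors and dividing cells 0.0061, with 0 genes at an unadjusted p under 0.05. Between R55 and R33 all 7 mural and fibroblast markers had a positive difference, 2 of them at an unadjusted p under 0.05, beside 1.15% of all tested genes. It was 1 with a correlation within mice (0.424% of all) and 0 with a value per mouse (0.617% of all). All 7 microglia markers were also positive (median 0.11). All 7 oligodendrocyte markers (median -0.12) and all 6 striatal neuron markers (median -0.44) were negative, with 0 genes of these 3 lists at an unadjusted p under 0.05. In the same comparison, 3 of the choroid plexus and ependymal markers were lower at an unadjusted p under 0.05, with a median of -0.90. It was 0 of them with a correlation within mice (0.424% of all) and 3 with a value per mouse (0.617% of all). Alas2 was at 0.55 after R55 (SE 0.23), with an unadjusted p under 0.05 that was lost with a value per mouse.

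Among the 12 other genes of the same protein family, 2 passed the filter, neither with an unadjusted p under 0.05 after R55. Values are given for 11, and the gene left out is among those that passed. The smallest adjusted p of this list after R55 was 0.598 in limma. Crabp2, a retinoic acid carrier, measured 1.54 ± 0.586 FPKM in vehicle controls (SD, n = 4), 2.54 ± 2.66 after R33 and 2.94 ± 1.69 after R55 (SD, n = 5 each), with a log2 difference of 0.53 after R55 (SE 0.33, adjusted p = 0.622, limma). Crabp1 averaged 0.406 FPKM and Fabp4, the adipocyte form, 0.0853 FPKM. Rbp7 averaged 0.0693 FPKM, Rbp2 0.0400 and Fabp6 0.0152. Fabp1, the liver form, averaged 0.0110 FPKM, Fabp12 0.0039, Pmp2, a myelin protein, 0.0018 and Fabp2, the intestinal form, 0.0013. Fabp9 is listed at 0 in all 27 libraries.

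Genes that handle fatty acids before and after their carriers were described in lists, and none of their genes passed the adjusted threshold in any of the 4 comparisons. In the list of uptake and activation, 16 of 20 genes were tested, and 2 were higher and 0 lower after R55 at an unadjusted p under 0.05, beside 8.45% of all tested genes, with a median difference of -0.035. With a correlation within mice, or a value per mouse, 0 genes of this list had an unadjusted p under 0.05. The 2 genes were the acyl-CoA synthetases Acsbg1, an enzyme of astrocytes (0.27, SE 0.13), and Acsl6 (0.18, SE 0.08). Acsl5 and the lipid carrier Scp2 were each at 0.13. Of 18 tested genes of mitochondrial fatty acid oxidation, 17 had a positive difference after R55, 4 of them at an unadjusted p under 0.05, with a median of 0.16. The 4 were Acaa2 (0.31, SE 0.13), Eci1 (0.29, SE 0.12), Hadhb (0.22, SE 0.09) and Hadha (0.16, SE 0.07), all enzymes of beta-oxidation, with a smallest adjusted p of 0.557 in limma. After R33 the median of this list was 0.21, and 11 genes had an unadjusted p under 0.05, all with a positive difference, beside 5.87% of all tested genes. With a correlation within mice these counts were 1 after R55 and 4 after R33, beside 4% and 2.25% of all tested genes, and with a value per mouse 1 and 5, beside 3.39% and 2.67%. Between R55 and R33, 0 of its genes had an unadjusted p under 0.05.

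Nuclear receptors that fatty acid binding proteins supply with ligand showed small differences. Of 17 tested genes among PPAR and RXR receptors and their classic targets, 2 were higher and 1 lower after R55 at an unadjusted p under 0.05, beside 8.45% of all tested genes, with a median of 0.085. The counts were 1 and 1 in both fits that account for the mouse, beside 4% and 3.39% of all tested genes. The gene that was lower is not named here, and the smallest adjusted p of the list was 0.528 in limma. Ppard, the receptor linked to Fabp5, was at 0.19 (SE 0.07, adjusted p = 0.552, limma) and Pparg at 0.26 (SE 0.11, adjusted p = 0.571, limma). Acaa1a, a peroxisomal thiolase, was at 0.16. Of 20 tested genes of fatty acid synthesis, elongation and desaturation, 2 were higher and 1 lower at an unadjusted p under 0.05, with a median of 0.057. The counts were 1 and 1 with a correlation within mice and 0 and 0 with a value per mouse. Fasn, the fatty acid synthase, was at -0.22 (SE 0.09), Tecr, an enzyme of elongation, at 0.16 (SE 0.07), Hacd1 at 0.17 (SE 0.07) and Acaca, the enzyme that makes malonyl-CoA, at -0.16 (SE 0.08). Of 11 tested endocannabinoid genes, the monoacylglycerol lipase Abhd6 had an unadjusted p under 0.05 after R55 (0.11, SE 0.04), which it did not have in either fit that accounts for the mouse. Cnr1, the cannabinoid receptor of neurons, was at -0.22, Mgll at 0.11 and Abhd12 at 0.07.

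Of 19 tested clock genes, 7 were higher and 1 lower after R55 at an unadjusted p under 0.05, beside 8.45% of all tested genes, with a median of 0.16. After R33, 5 were higher and 1 lower, beside 5.87%, with a median of 0.18. These counts treat the hemispheres of a mouse as separate. With a correlation within mice, and also with a value per mouse, they were 6 higher and 0 lower after R55, beside 4% and 3.39% of all tested genes, and 4 higher and 1 lower after R33, beside 2.25% and 2.67%, with a smallest adjusted p of 0.846 after R55 in limma with the correlation. The 4 named by the rule were Cry1 (0.38, SE 0.08), Nr1d2 (0.34, SE 0.08), Per3 (0.37, SE 0.10) and Tef (0.30, SE 0.08), and the smallest adjusted p was 0.13 in limma, for Cry1 and Nr1d2. Dbp, an output factor of the clock, averaged 27.6 FPKM in the 4 vehicle controls with an SD of 16.4, and after R55 it averaged 40.2 FPKM over 5 mice with an SD of 3.75. Nr1d1, a repressor of the clock, measured 57.8 ± 18.7 and 54.2 ± 1.57 FPKM, and Arntl, the activator also named Bmal1, 13.4 ± 3.64 and 10.96 ± 1.08 FPKM. Vehicle-treated mice J and M, the vehicle controls with the highest fabp7, had the lowest mouse means of Dbp of all 14 mice, 13.3 and 15.97 FPKM, and the lowest of Nr1d1, 36.8 and 47.6 FPKM. The time of day at which each mouse was killed is not given in the sources used here, and its part in these differences was not tested.

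**Figure D3:**
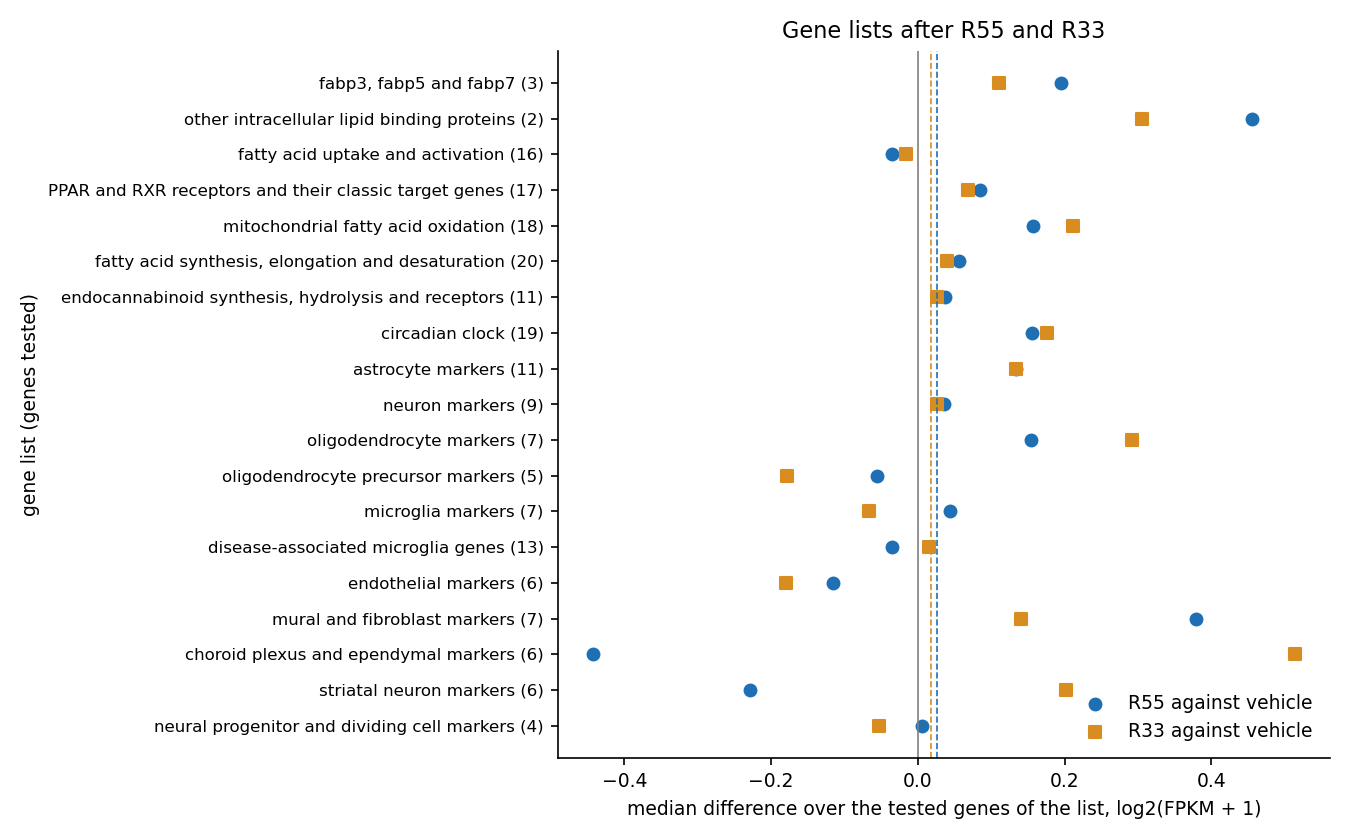
Median difference over the tested genes of each list on the log2(FPKM + 1) scale (horizontal axis) for R55 against vehicle (circles) and R33 against vehicle (squares), with the number of genes tested in parentheses; dashed lines are the medians over all tested genes, 0.026 and 0.018. Mitochondrial fatty acid oxidation lies at 0.16 and 0.21, and choroid plexus and ependymal markers at -0.44 and 0.51.

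Relations among mice were measured on mouse means of log2(FPKM + 1), with 21 relations computed and adjusted together. Fabp3, fabp5 and fabp7 were chosen with these values known, so the p-values describe these mice and support nothing further. Fabp7 and Dbp had a Pearson r of -0.67 over 14 mice (two-sided permutation p = 0.0125, adjusted p = 0.111) and a Spearman rho of -0.30 (permutation p = 0.296, adjusted p = 0.489). Without mice J and M, the farthest from the median of Dbp, r was 0.06 (permutation p = 0.87), so the relation rests on these 2 mice. With Nr1d1, r was -0.57 (permutation p = 0.0498, adjusted p = 0.174) and rho -0.21 (permutation p = 0.463), and without AH and J r was -0.20. With Arntl, r was 0.37 (permutation p = 0.204, adjusted p = 0.390) and rho 0.16 (permutation p = 0.574). Within the 9 mice with 1-letter labels, which include J and M, r was -0.86 for Dbp (exact permutation p = 0.0031), -0.75 for Nr1d1 (exact permutation p = 0.0367) and 0.62 for Arntl (exact permutation p = 0.0666), and the 5 mice with 2-letter labels were too few. In the same 9 mice Spearman's rho was -0.68 for Dbp (exact permutation p = 0.0503), -0.20 for Nr1d1 (exact permutation p = 0.613) and 0.55 for Arntl (exact permutation p = 0.133). With the mean of each treatment subtracted, r with Nr1d1 was -0.79 (permutation p = 0.0028, adjusted p = 0.0489) and with Dbp -0.56 (permutation p = 0.0370, adjusted p = 0.194), while rho with Nr1d1 was -0.48 (permutation p = 0.0848, adjusted p = 0.228). Over the injected blocks only, r with Nr1d1 was -0.46 (permutation p = 0.0954, adjusted p = 0.245), with Dbp -0.42 (permutation p = 0.140, adjusted p = 0.314) and with Arntl 0.17 (permutation p = 0.560). Fabp3 and Dbp had an r of 0.59 (permutation p = 0.0285, adjusted p = 0.132) and a rho of 0.57 (permutation p = 0.0361). Without J and M r was 0.42, and within the mice with 1-letter labels 0.57. For fabp5 and Dbp r was 0.44 (permutation p = 0.110, adjusted p = 0.284) and rho 0.54 (permutation p = 0.0483). Without J and M r was 0.62 (permutation p = 0.0387), and within the mice with 1-letter labels 0.17.

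**Figure D4:**
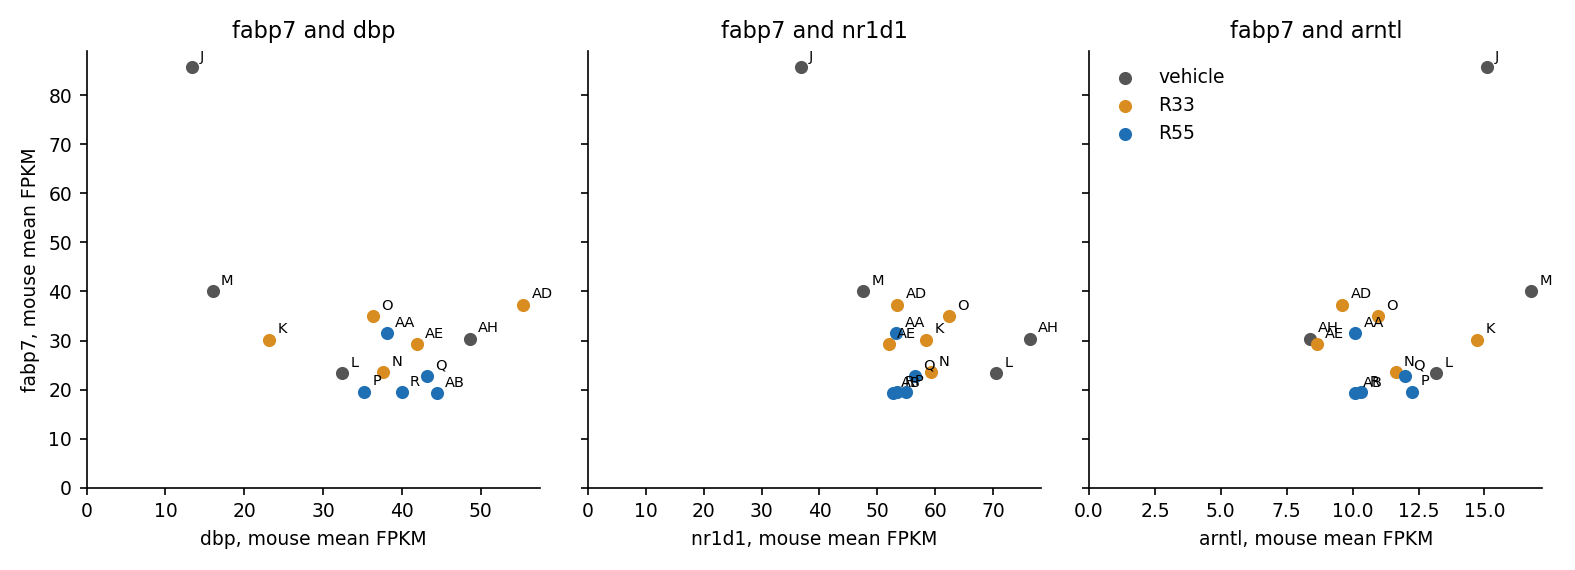
Mouse means in FPKM of fabp7 (vertical axis) against the clock genes dbp, nr1d1 and arntl (horizontal axes); each point is 1 of the 14 mice with its label, coloured by treatment. Mice J and M stand at 13.3 and 15.97 FPKM of dbp with 85.7 and 40.1 FPKM of fabp7, and the other mice show no such order.

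Fabp5 was also set beside disease-associated microglia genes, the set that microglia switch on around amyloid plaques. Pearson r was 0.66 over 14 mice (permutation p = 0.0071, adjusted p = 0.111) and rho 0.76 (permutation p = 0.0023, adjusted p = 0.0483). Without mice K and P, the farthest from the median, r was 0.63 (permutation p = 0.0273), and within the 9 mice with 1-letter labels 0.64 (exact permutation p = 0.0699). With the treatment means subtracted r was 0.69 (permutation p = 0.0047, adjusted p = 0.0489), and over the injected blocks only it was 0.70 (permutation p = 0.0024, adjusted p = 0.0441). Fabp5 followed other genes more closely, such as the ribosomal protein gene Rpl28 at an r of 0.96. Whether its relation to the microglia genes is particular to them was not tested. Mouse AD lay above the other mice, with a fabp5 mean of 100.2 FPKM. Fabp5 averaged 74.7 ± 16.2 FPKM (SD) in the 5 mice with 2-letter labels and 59.5 ± 4.71 FPKM in the 9 with 1-letter labels. Treatments are not balanced over the labels. The 1 vehicle control with a 2-letter label had 56.5 FPKM, and the 3 with 1-letter labels averaged 57.7 FPKM. After R33 the means were 85.9 FPKM in 2 mice, AD among them, and 58.5 FPKM in 3. After R55 they were 72.5 FPKM in 2 mice and 62.5 FPKM in 3. The 13 disease-associated microglia genes were led by Ctsd, a lysosomal protease, and summed to 510 to 1487 FPKM per library. After R55 their median difference was -0.035, with 5 positive and 8 negative differences. At an unadjusted p under 0.05 there was 1 gene, beside 8.45% of all tested genes. It was 1 with a correlation within mice (4% of all) and 0 with a value per mouse (3.39% of all). The gene named first by the rule was Spp1, which encodes osteopontin, at 0.98 (SE 0.44, adjusted p = 0.572, limma), followed by Lgals3 at 0.40, Cd63 at 0.20 and Itgax at -0.16.

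**Figure D5:**
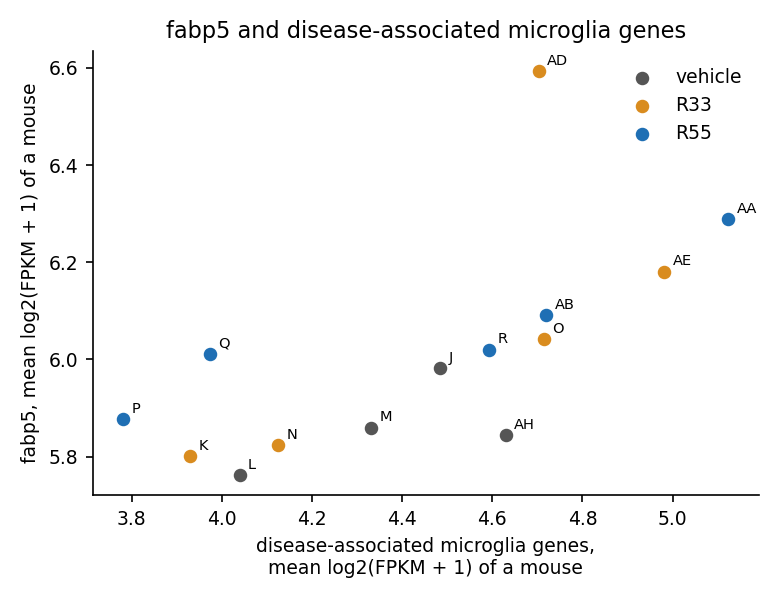
Mean log2(FPKM + 1) of fabp5 (vertical axis) against the mean over the disease-associated microglia genes (horizontal axis) in each of the 14 mice, coloured by treatment. The mice run from the lower left to the upper right, with R33-treated mouse AD above the others.

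The members themselves showed no adjusted relation. Fabp3 and fabp5 had an r of 0.58 (permutation p = 0.0314, adjusted p = 0.132) and a rho of 0.24 (permutation p = 0.407), and without AD and J r was 0.20, while the 9 mice with 1-letter labels gave -0.088 (exact permutation p = 0.831). Fabp3 and fabp7 had an r of -0.33 (permutation p = 0.246, adjusted p = 0.417) and a rho of -0.39 (permutation p = 0.165), and within the 9 mice with 1-letter labels r was -0.61 (exact permutation p = 0.0800) and rho -0.78 (exact permutation p = 0.0172). For fabp5 and fabp7 r was 0.12 (permutation p = 0.664) and rho 0.11 (permutation p = 0.703), and r within the 1-letter labels was 0.18 (exact permutation p = 0.696). With the treatment means subtracted this pair had an r of 0.46 (permutation p = 0.104) and a rho of 0.50 (permutation p = 0.0747). Between the hemispheres of a mouse, r over 13 mice was 0.55 for fabp7 (permutation p = 0.0158, adjusted p = 0.111; rho 0.43, permutation p = 0.141), 0.45 for fabp3 (permutation p = 0.128; rho 0.23, permutation p = 0.446) and 0.25 for fabp5 (permutation p = 0.429; rho 0.18, permutation p = 0.555). The fabp3 value was 0.18 without AD and Q and 0.057 within the mice with 1-letter labels (exact permutation p = 0.878). The fabp5 value was 0.63 without AB and Q (permutation p = 0.0223) and -0.36 within the mice with 1-letter labels (exact permutation p = 0.335). The fabp7 value was 0.28 without J and P, and 0.67 within the mice with 1-letter labels (exact permutation p = 0.0177). Astrocyte markers had an r of 0.23 with fabp7 (permutation p = 0.421; rho 0.22, permutation p = 0.454), 0.29 with fabp5 (permutation p = 0.303; rho 0.42, permutation p = 0.134) and -0.42 with fabp3 (permutation p = 0.135; rho -0.56, permutation p = 0.0384). Within the 9 mice with 1-letter labels these were 0.31 (exact permutation p = 0.422), 0.70 (exact permutation p = 0.0344) and -0.56 (exact permutation p = 0.117), and without AE and L they were 0.19, 0.0003 and -0.46. Fabp5 and Arntl had an r of -0.51 (permutation p = 0.0603, adjusted p = 0.181) and a rho of -0.58 (permutation p = 0.0313, adjusted p = 0.202). Without AH and M r was -0.69 (permutation p = 0.0113) and rho -0.85 (permutation p = 0.00078), within the mice with 1-letter labels r was -0.46 (exact permutation p = 0.205), and over the injected blocks only rho was -0.75 (permutation p = 0.0025, adjusted p = 0.0225) and r -0.55 (adjusted p = 0.218 by permutation). The remaining relations had adjusted p-values from 0.417 to 0.920 by permutation of r.

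The genes whose mouse means were most like those of each member were ranked over all tested genes and are given as a description over 14 mice of 3 treatments, whose libraries differ in depth. For fabp5 they were the ribosomal protein genes Rpl28 (r = 0.96, rho = 0.92), Rpl31 (0.96, 0.88), Rps4x (0.96, 0.89) and Rpl7a (0.95, 0.87) and the nucleoside diphosphate kinase Nme2 (0.95, 0.92), and the most opposed were Pcdhb19 (-0.96, -0.93), Tmem178b (-0.95, -0.90) and Marchf6 (-0.95, -0.89). For fabp3 they were 2210016L21Rik (r = 0.95, rho = 0.87), Tubg1, a tubulin of the centrosome (0.95, 0.91), Cdkn2d, an inhibitor of cyclin-dependent kinases (0.95, 0.90), Pef1 (0.95, 0.93) and Stoml1 (0.94, 0.93), and the most opposed were Limch1 (-0.94, -0.94), Megf10, an engulfment receptor of astrocytes (-0.93, -0.85), and Dpy19l4 (-0.91, -0.86). The genes most like fabp3 and fabp5 were 864 to 2268 bp long and the most opposed 4714 to 12018 bp. For fabp7 they were Gm10561 (r = 0.89, rho = 0.66), Pm20d2 (0.88, 0.63), Mmp14, a membrane metalloprotease (0.82, 0.67), Nedd9 (0.81, 0.54) and Gabpb2 (0.79, 0.58), and the most opposed were Ggt7 (-0.88, -0.75), Plbd2 (-0.81, -0.55) and Abcb9 (-0.80, -0.47). For fabp7, rho was smaller in size than r for each of these genes.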

How the data were processed

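Total RNA of cortex blocks was made into stranded mRNA libraries, sequenced from both ends and aligned with HISAT2 (GRCm39). Values are FPKM as deposited for 32 libraries, of which 27 were used; the other 5 are outside the list of samples followed and were not used here. After 32 leftover header lines were dropped, 100% of values above 0 were whole multiples of a fragment within 0.01, so fragments and gene lengths were recovered. The tool that counted fragments is not given in the sources used here.

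The 3 members and all gene lists were chosen with earlier results of these data known. limma was fitted to log2(FPKM + 1) of 12976 genes whose mean reached 1 FPKM, as a sum of treatment and hemisphere, with moderated variances that follow expression level, Benjamini-Hochberg adjustment and a two-sided threshold of 0.05. Libraries of a mouse counted as separate. Deviations from group means correlated at a mean of 0.39 between hemispheres of a mouse, which share its label (13 pairs, -0.079 to 0.65), and at -0.11 between mice of a treatment (48 pairs). Named genes were the other members of the family, up to 4 tested genes per list with the smallest unadjusted p for R55 against vehicle, Nr1d1, Dbp, Arntl, and the 5 highest and 3 lowest Pearson r with each member; a few genes under this rule are not given. Relations used 100000 permutations, or all pairings under 10 mice. Alternatives were a pseudocount of 0.1, no filter, median-of-ratios size factors, limma voom on recovered fragments, a correlation within mice, the mouse as a block, label letters as a covariate, a length trend removed by lowess (span 0.3), a value per mouse, each hemisphere alone and each mouse left out. The fit, the recovery of fragments and the permutation p were tested on simulated data. Software was limma 3.58.1 and statmod 1.5.0 under R 4.3.3, blastn 2.17.0, and scipy 1.17.1, pandas 2.3.3, matplotlib 3.10.9 and numpy 2.4.6 under Python 3.11.15.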

Additional observations from a re-analysis of the deposited data

Results flagged for a closer look

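Within groups of 4 or 5 mice, 45 sets of values of the members and of 3 clock genes were searched for a highest or lowest value far from the rest (Dixon's criterion), and 5 sets had one. Chance gives one in about 1 of 20 sets, but all 5 are values of the members, which were chosen from these libraries, and sets share values (the block and the mouse mean of AA), so their number is not read against chance. Fabp7 stood at 109 FPKM in the contralateral block of vehicle-treated mouse J, against 25.9 to 29.5 FPKM in the other 3. Fabp5 stood at 130.3 FPKM in the injected block of R33-treated mouse AD, against 53.1 to 71.5 FPKM, and AD also had a mouse mean of 64.8 FPKM for fabp3, against 39.97 to 46.4 FPKM. R55-treated mouse AA had 37.2 FPKM of fabp7 in its injected block, against 19.3 to 23.6 FPKM, and a mouse mean of 31.5 FPKM, against 19.2 to 22.8 FPKM. The causes of these values were not tested.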

How the results depend on the processing

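None of the 3 members was called in any of 115 fits. With each mouse left out, the R55 difference from vehicle ran from -1.03 to -0.44 for fabp7, 0.14 to 0.24 for fabp5 and 0.14 to 0.24 for fabp3; the other alternatives gave -1.01 to -0.72, 0.10 to 0.23 and 0.09 to 0.23. With the mouse as a block (13 mice), injected against contralateral gave 0.24 for fabp7, 0.08 for fabp5 and -0.03 for fabp3, with 0 genes called and 795 at an unadjusted p under 0.05 against 450 without the block; the block changed no call, and a fit with the block (chosen after seeing the data) gave 1 without Q (A2m) or AD (AF357359).

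Over all genes, R55 against vehicle gave 1 call (Ryr2). It gave 0 with no filter, size factors, a correlation within mice, label letters as a covariate, the length trend removed, a value per mouse, or either hemisphere alone (141 to 1558 genes at an unadjusted p under 0.05). From the hemispheres of a mouse as separate to a correlation within mice, and to a value per mouse, genes at an unadjusted p under 0.05 went from 1096 to 519 and 440 for R55, and from 762 to 292 and 346 for R33, against vehicle. It gave 5 among mice with 1-letter labels (chosen after seeing the data; Cacna1e, Dcc, Nr1d2, Ryr2 and Tsc22d3), and 0 to 50 with each mouse left out, 50 of them without AD, 4 without AH and 3 without J. R33 against vehicle gave 1 call without the filter (Vgll2), R55 against R33 gave 0 to 2 with each mouse left out (2 without AD, Dusp1 and Ier2), and injected against contralateral gave 1 with a correlation within mice (Gbe1). Genes named here were chosen after their values were seen, and the cause of these moves was not tested.

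Of 102 alternative values of the relations, 94 kept their sign and their side of the threshold. Within mice with 1-letter labels r turned to -0.36 for fabp5 between hemispheres, -0.088 for fabp5 with fabp3 and -0.67 for fabp3 with disease-associated microglia genes. Without the 2 mice farthest from the median it turned to -0.026 for fabp3 with Nr1d1 and 0.057 for fabp7 with Dbp. The cause was not tested. Members rested on at least 308 fragments per library.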
